A study of Mus musculus with 7 samples.

Results

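The genes described are 10 genes of the extracellular matrix that are secreted or displayed by connective tissue cells: Postn, Cilp, Fn1, Tnc, Thbs1, Thbs2, Thbs4, Sparc, Comp and Tnmd. They were picked by symbol from the 21487 genes of the count table, and their knockout and control levels were already known when they were picked, so the comparison of the groups is given here as a description of these genes. All 10 were present and all 10 passed the filter on low counts, with 143 to 17656 counts each over the 7 libraries. RNA came from whole gastrocnemius, the fast calf muscle, of mice made atrophic by immobilization. The controls (3 libraries, control 1 to 3) were floxed mice, labelled WT, with an intact Park7 gene, and the knockouts (4 libraries, knockout 1 to 4) lacked Park7, the gene of the redox-protective protein DJ-1, in skeletal muscle. Both groups were immobilized, so disuse is what all 7 libraries share. The sources used here give neither the Cre driver, the age and sex of the mice nor whether each library is a separate animal, and p-values measure the spread between these samples, which may be technical.

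Matricellular proteins such as periostin, tenascin-C, SPARC and the thrombospondins are secreted into the matrix, where they tune how cells adhere, how collagen assembles and how growth factors such as TGF-beta reach their receptors. In muscle they are made mainly by interstitial fibroblasts, by vessel cells and by the tenocytes of tendon, aponeurosis and fascia, and several concentrate at the myotendinous junction, where fibres hand their force to tendon. Tenomodulin and COMP are best known as products of tendon and cartilage.

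Library totals ran from 24458343 to 26389010 expected counts. Muscle genes dominated every library, with Acta1 (skeletal actin) at 14046 to 23845 CPM (counts-per-million, scaled by TMM library size) and Ckm (muscle creatine kinase) at 11384 to 19092 CPM. Park7 stood at 229 to 266 CPM in the controls and at 34.7 to 41.5 CPM in the knockouts. Connective tissue varied between the libraries of a group. Control 3 stood apart for tendon genes and control 1 for nerve: 12 nerve sheath markers summed to 286 CPM in control 1 against 80.4 and 96.2 CPM in controls 2 and 3 and 53.3 to 67.3 CPM in the knockouts. Because these are whole muscles, fewer cells of a type and less RNA per cell cannot be told apart.

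The 250 bases before the start site are shown for Postn and Cilp, the members called lower with each library left out in turn, for Thbs4, the most abundant of the called members in the knockouts per length, and for Tnmd, whose difference rested on control 3. For Postn the window is that of the start site nearest the annotated gene start, and the window of a start site 1842 bases before that gene start, which held 0 E-boxes and 0 TATA boxes, is not shown. The windows of Tnc, Thbs2 and Sparc are not shown either. The sequences are RefSeq's for GRCm38.p6, read 5′ to 3′ on the strand of the gene, and capitals mark E-boxes (CANNTG, the core bound by basic helix-loop-helix factors, among them scleraxis in tendon) and TATA boxes (TATAAA), searched on both strands.
Postn, chr3:54360857-54361106 (plus strand): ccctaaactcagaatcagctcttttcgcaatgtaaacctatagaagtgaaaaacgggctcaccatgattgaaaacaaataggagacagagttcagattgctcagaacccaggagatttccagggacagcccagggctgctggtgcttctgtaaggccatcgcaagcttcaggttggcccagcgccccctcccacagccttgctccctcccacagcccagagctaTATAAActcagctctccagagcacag
Cilp, chr9:65264930-65265179 (plus strand): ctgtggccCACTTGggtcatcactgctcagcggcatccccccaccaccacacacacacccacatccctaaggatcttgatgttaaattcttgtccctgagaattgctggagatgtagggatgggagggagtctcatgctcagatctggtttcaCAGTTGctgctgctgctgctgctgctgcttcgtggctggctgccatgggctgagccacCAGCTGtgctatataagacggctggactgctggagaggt
Thbs4, chr13:92794819-92795068 (minus strand): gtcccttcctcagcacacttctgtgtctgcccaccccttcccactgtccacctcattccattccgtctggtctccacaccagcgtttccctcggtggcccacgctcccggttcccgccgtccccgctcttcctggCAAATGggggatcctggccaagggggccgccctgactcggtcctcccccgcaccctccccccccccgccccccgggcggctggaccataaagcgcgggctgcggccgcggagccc
Tnmd, chrX:133850758-133851007 (plus strand): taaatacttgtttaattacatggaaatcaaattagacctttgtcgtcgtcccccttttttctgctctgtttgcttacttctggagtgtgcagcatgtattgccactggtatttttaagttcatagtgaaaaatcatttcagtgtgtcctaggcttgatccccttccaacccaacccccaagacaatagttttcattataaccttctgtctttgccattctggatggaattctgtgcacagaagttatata
The Cilp window held 3 E-boxes, the Thbs4 window 1 and the Postn and Tnmd windows 0, and an E-box was present in 66.2% of the 32851 windows of this length. The Postn window held 1 TATA box, a motif found in 12.4% of all windows. Promoter windows were matched for 7 of the 10 members. A GGAATG motif, the TEAD core, occurred at 2 positions in the Thbs4 window and at 0 in the other windows shown, against 12.6% of all windows with at least 1. A match in such a window is a string of letters and not a measured site.

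The 10 genes lie on 10 different chromosomes, so no cluster of neighbours is among them. Postn lies on chromosome 3 at 54361109 to 54391037, plus strand, in GRCm38, and Cilp on chromosome 9 at 65265180 to 65280605, plus strand. Tnc shares chromosome 4 with Park7, at 63959785 to 64047015 against 150897133 to 150914437. Expected counts of all 10 genes were whole numbers in every library, so no reads were split with similar genes. Exons of Fn1, Tnc and Thbs1 overlap an annotated antisense or noncoding gene on the other strand over 292, 176 and 208 bases, and without a stated strand such reads cannot be assigned.

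Per kilobase of exon, Sparc was the most abundant member in both groups and Tnc the least. In the controls the order of mean levels was Sparc (32.0 CPM per kb), Thbs4 (18.6), Cilp (12.4), Fn1 (4.91), Postn (2.34), Tnmd (1.91), Thbs2 (1.26), Comp (0.794), Thbs1 (0.688) and Tnc (0.173). Neighbours in that order overlapped between libraries except at Cilp above Fn1 and Thbs1 above Tnc. In the knockouts Sparc (21.1 CPM per kb), Thbs4 (6.14) and Fn1 (1.95) led, Cilp (1.82) came next, and Postn (0.191) was next to last.

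Of the 10 members, 5 were called lower in the knockout (Cilp, Postn, Fn1, Thbs4 and Tnc) and 0 higher, at an adjusted p under 0.05. Over all 13409 tested genes 7.94% were called lower and 6.56% higher, or 14.5% in either direction, and 5.1% were lower by over 1.5-fold, as all 5 of these members were. With upper quartile scaling 33.5% of all calls were higher, against 45.2% with the TMM scaling used throughout. The median log2 fold change of the members was -1.58 and that of all tested genes 0.0057. For the same 5 members every knockout lay below every control, as it did for 14.8% of tested genes, while 14% had every knockout above every control. Nothing about the set is read from these shares, since its members were picked with the contrast known. DESeq2 called 6 members lower, with 9.53% of genes. A fit with a replicate term, which left out knockout 4, called 3, with 5.04%. Without knockout 4 and without that term 4 members were called lower, when 692 of 13318 tested genes were. Without control 3, 2 members were called lower (Cilp and Postn), when 3.82% of tested genes were, and the median of the members was -0.64.

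**Figure D1:**
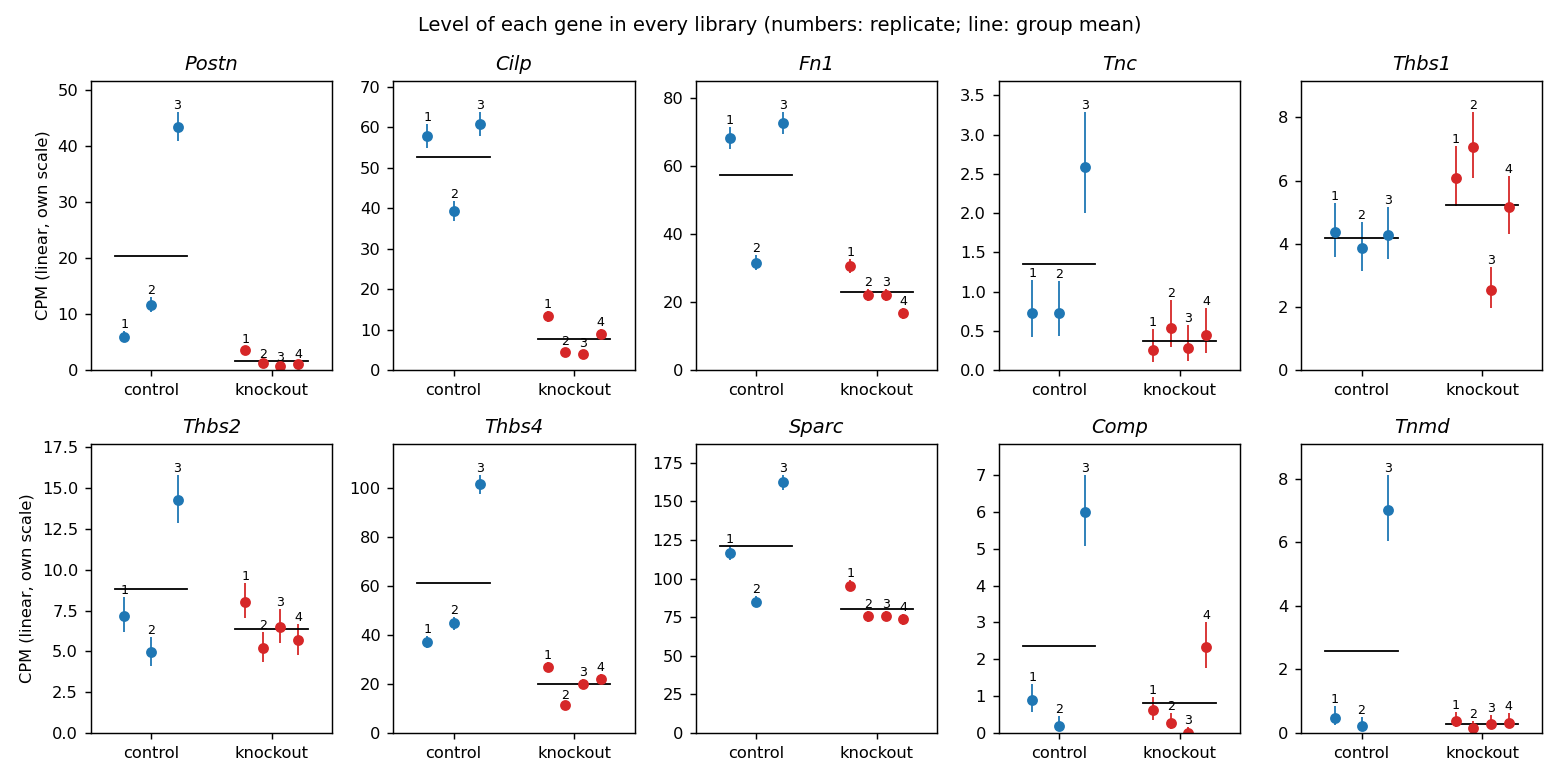
Level of each member (CPM, linear axis from 0, own scale per panel) in control 1 to 3 and knockout 1 to 4. Points are libraries, numbered by replicate, bars are 95% exact binomial intervals of the count and lines are group means. Control 3 is the highest control for 9 of the 10 genes, and the Cilp controls lie between 39.4 and 60.7 CPM, above all 4 knockouts.

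Cilp encodes cartilage intermediate layer protein, a secreted matrix protein that binds TGF-beta 1 and dampens its signalling. Its level was 57.8, 39.4 and 60.7 CPM in control 1 to 3 and 13.3, 4.57, 4.10 and 8.99 CPM in knockout 1 to 4. Every knockout lay below every control, and the lowest control stood well above the highest knockout. Controls averaged 52.6 ± 11.6 CPM (SD, n = 3) and knockouts 7.74 ± 4.32 CPM (SD, n = 4), and the ratio of knockout to control was 0.147. On the log2 scale the difference was -2.76 with SE 0.368 (edgeR quasi-likelihood F test, adjusted p = 0.00474). Control 3 stood at 1.25 times the mean of the other controls for this gene. On this ratio Cilp ranked 816 of the 11920 genes with an average log2 CPM above 0. Without control 3 the log2 fold change was -2.64 (adjusted p = 0.0218). The call held with each library left out in turn, with log2 fold changes of -3.17 to -2.55.

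Postn encodes periostin, which fibroblasts secrete in growing or remodelling tissue and which binds integrins and aids collagen cross-linking. Control 1 to 3 gave 149, 305 and 1126 counts, or 5.99, 11.7 and 43.5 CPM. Knockout 1 to 4 gave 98, 32, 19 and 28 counts, or 3.56, 1.22, 0.757 and 1.13 CPM. All knockouts were below all controls, but the controls themselves spanned 7.26-fold, and knockout 1 was closest to them. Control libraries averaged 20.4 ± 20.2 CPM (SD, n = 3) and knockout libraries 1.66 ± 1.28 CPM (SD, n = 4). Postn had a log2 difference of -3.60 ± 0.711 (SE; adjusted p = 0.0145). Its level in control 3 was 4.92 times the mean of controls 1 and 2, and the knockout mean was 0.188 times that of those 2 controls alone. Without control 3 the log2 fold change was -2.39 ± 0.523 (SE; adjusted p = 0.0407). The call held with each single library left out (adjusted p = 0.0156 to 0.0428) and ended without control 3 and knockout 4 together (-2.25, adjusted p = 0.0882).

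Fn1 encodes fibronectin, the adhesive glycoprotein on which other matrix proteins assemble and which cells grip through integrins. The controls read 68.1, 31.5 and 72.4 CPM and the knockouts 30.5, 22.03, 22.1 and 16.7 CPM. The groups only just failed to overlap, since control 2 and knockout 1 had exact binomial intervals of 29.4 to 33.7 and 28.4 to 32.6 CPM. Fn1 had a log2 difference of -1.33 ± 0.282 (SE; adjusted p = 0.0183), a ratio to the control mean of 0.398. The call ended without control 1 (adjusted p = 0.0629), control 3 (0.0678) or knockout 3 (0.0509), with the log2 fold change between -1.62 and -1.12 over the 7 libraries left out in turn.

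Tnc encodes tenascin-C, a large anti-adhesive glycoprotein that is enriched at the myotendinous junction and responds to mechanical load. It was the rarest member, with 18, 19 and 67 counts in control 1 to 3 and 7, 14, 7 and 11 counts in knockout 1 to 4. The corresponding levels were 0.724, 0.728 and 2.59 CPM in the controls and 0.254, 0.533, 0.279 and 0.443 CPM in the knockouts. The groups did not overlap, yet the intervals of controls 1 and 2 (0.429 to 1.14 and 0.438 to 1.14 CPM) included the levels of knockouts 2 and 4. Tnc had a log2 difference of -1.83 ± 0.527 (SE; adjusted p = 0.0488). With 7 counts in knockouts 1 and 3, Tnc passed the filter on low counts only with the help of the controls. It was also called without that filter (adjusted p = 0.0344). No fit with 1 library left out kept the call (adjusted p = 0.0503 to 0.178), and without control 3 the log2 fold change was -0.94.

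The thrombospondins are multimeric calcium-binding glycoproteins. Thbs1 and Thbs2 form trimers that restrain angiogenesis through CD36 and CD47, and thrombospondin 1 can also activate latent TGF-beta. Thbs4 and COMP belong to the pentameric branch of the family, which is abundant in tendon and, for Thbs4, at muscle attachments. Of these 4 genes Thbs4 was called lower and the others were not called.

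Thbs4 read 37.3, 44.7 and 101.6 CPM in the controls and 27.1, 11.5, 20.2 and 22.004 CPM in the knockouts. The groups did not overlap, with control 3 at 2.48 times the mean of the other controls. Thbs4 had a log2 difference of -1.60 ± 0.366 (SE; adjusted p = 0.0237), a ratio of 0.330 to the control mean and of 0.492 to the mean of controls 1 and 2. The call ended without control 3 (log2 fold change -1.02, adjusted p = 0.0679), without knockout 3 (-1.60, adjusted p = 0.0612) and with the robust prior (adjusted p = 0.0577).

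Thbs1 read 4.38, 3.87 and 4.29 CPM in the controls and 6.09, 7.08, 2.55 and 5.16 CPM in the knockouts. The 3 controls were close together and lay within the range of the knockouts, of which 3 were above and knockout 3 below every control. Its log2 fold change was 0.32 ± 0.291 (SE; adjusted p = 0.483), the single positive value among the members. With each library left out it ran from 0.14 to 0.55 and was never called.

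Thbs2 read 7.20, 4.94 and 14.3 CPM in the controls and 8.05, 5.21, 6.49 and 5.68 CPM in the knockouts. The knockouts lay between controls 1 and 2 except knockout 1, which lay above both and below control 3. The log2 fold change was -0.47 ± 0.321 (SE; adjusted p = 0.350) with control 3 and 0.07 (SE 0.225, adjusted p = 0.870) without it, so its sign rested on that library.

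Comp, which encodes cartilage oligomeric matrix protein, was detected from 22, 5 and 155 counts in control 1 to 3 and from 17, 7, 0 and 58 counts in knockout 1 to 4. The levels were 0.884, 0.192 and 5.99 CPM against 0.617, 0.266, 0 and 2.34 CPM, and the count of 0 in knockout 3 allows up to 0.119 CPM. Control 3 was the highest library, knockout 4 the next, and the remaining libraries overlapped. The log2 fold change was -1.56 ± 1.13 (SE; adjusted p = 0.378), and it became 0.58 (SE 1.21, adjusted p = 0.796) without control 3 and -2.95 (SE 1.23, adjusted p = 0.164) without knockout 4.

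Tnmd encodes tenomodulin, a membrane glycoprotein of tenocytes that is needed for the maturation of tendon and serves as its marker. It was counted 12, 6 and 182 times in control 1 to 3 and 10, 4, 7 and 8 times in knockout 1 to 4, that is 0.482, 0.230 and 7.03 CPM against 0.363, 0.152, 0.279 and 0.322 CPM. Control 3 was 19.7 times the mean of the other controls, whereas control 2 lay among the knockouts and control 1 just above the highest of them. The exact binomial interval of control 3 was 6.05 to 8.13 CPM, and the highest upper limit of any other library was 0.843 CPM. The mean of 2.58 ± 3.86 CPM in the controls (SD, n = 3) therefore described no control library. The log2 fold change was -3.19 ± 1.06 (SE; adjusted p = 0.0738) with all libraries and -0.34 (SE 0.506, adjusted p = 0.710) without control 3. It was called without control 2 (adjusted p = 0.0409) and without a filter on low counts (adjusted p = 0.0453).

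Sparc encodes a collagen-binding glycoprotein of the basement membrane and interstitium that is made by fibroblasts, vessel cells and satellite cells. It read 116, 85.1 and 162 CPM in the controls and 95.4, 75.5, 75.7 and 73.5 CPM in the knockouts. The groups overlapped at control 2 and knockout 1, while the other knockouts lay below every control. The mean was 121 ± 38.8 CPM (SD, n = 3) against 80.03 ± 10.3 CPM (SD, n = 4), which is a log2 difference of -0.60 ± 0.193 (SE; adjusted p = 0.0686). It was called by DESeq2 (adjusted p = 0.0211) and without control 2 (0.0281), and its log2 fold change was -0.33 without control 3.

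**Figure D2:**
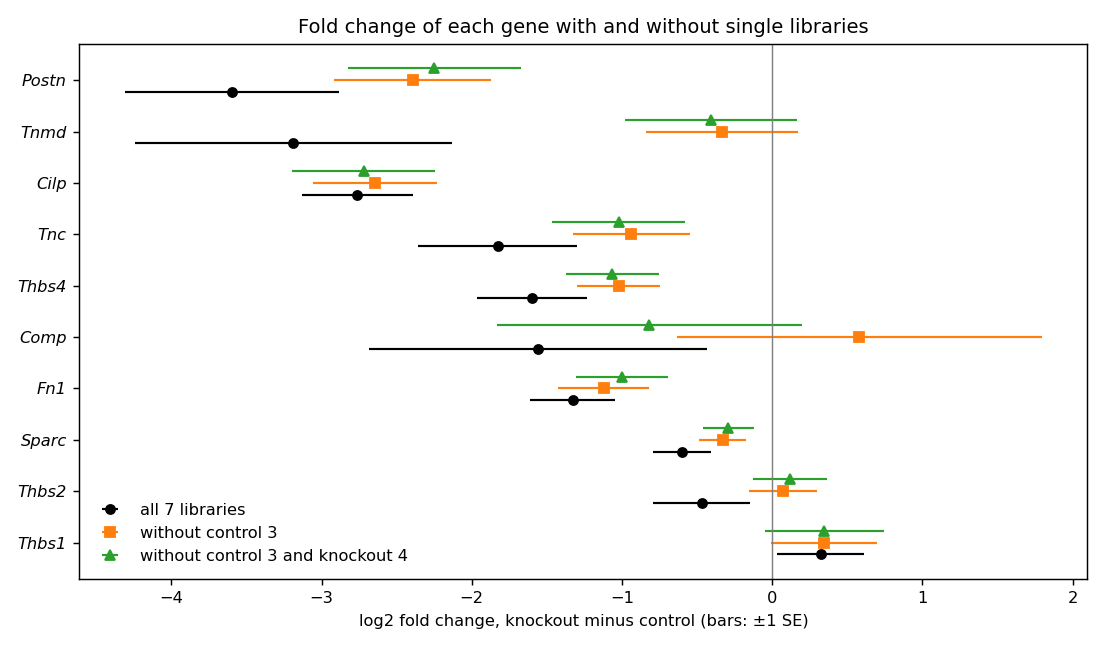
Log2 fold change (knockout minus control, horizontal axis) of each member with all 7 libraries, without control 3, and without control 3 and knockout 4. Bars are ±1 SE of the edgeR fit. Cilp stays between -2.76 and -2.64 in these 3 fits, Tnmd moves from -3.19 to -0.34 without control 3, and Comp and Thbs2 cross 0.

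Control 3 was the highest control for 9 of the 10 members and control 1 for the other, Thbs1. Its level exceeded that of both other controls by more than 2-fold for 5 members (Postn, Tnc, Thbs4, Comp and Tnmd), as did 36 or 0.302% of the 11920 genes with an average log2 CPM above 0, an average that Tnc did not reach. The ratio of control 3 to the mean of controls 1 and 2 ordered the members as Tnmd (19.7), Comp (11.1), Postn (4.92), Tnc (3.57), Thbs4 (2.48), Thbs2 (2.35), Sparc (1.61), Fn1 (1.45), Cilp (1.25) and Thbs1 (1.04). Among the 11920 genes Tnmd ranked 1 on this ratio, Comp 3 and Postn 8.

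The other genes with high ratios in control 3, picked after their values were seen, included genes of tendon matrix. Kera, the proteoglycan keratocan, was counted 11, 2 and 180 times in control 1 to 3 and 5, 2, 2 and 2 times in knockout 1 to 4. Cilp2, the paralog of Cilp, was counted 6, 1 and 109 times in the controls and 7, 1, 4 and 23 times in the knockouts. Fmod, fibromodulin, which regulates collagen fibrils in tendon, read 5.35, 1.99 and 44.3 CPM in the controls and 7.69, 2.05, 3.78 and 20.9 CPM in the knockouts. Knockout 4 thus shared high Comp, Fmod and Cilp2 with control 3 but not high Tnmd or Kera. Of 17 tenocyte markers beside the members, 9 were more than 2-fold above both other controls in control 3 and 14 were highest there. Among these 9 only Fmod and Col12a1 had an average log2 CPM above 0, as the genes behind the 0.302% had. Chad lay below that limit, and the others, among them Kera, Cilp2 and Mkx, did not pass the filter on low counts. How often any gene was highest in control 3 was not computed. The 17 markers summed to 229 to 349 CPM in the controls and 215 to 266 CPM in the knockouts. Most of this was Dcn (decorin), which fibroblasts also make. Between 0 and 2 of the 17 were at 0 counts in any library.

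Of 9 transcription factor genes linked to tendon, 1 (Mkx) was more than 2-fold above both other controls in control 3. Scx, the bHLH factor scleraxis that specifies tendon, read 2.89, 3.56 and 3.86 CPM in the controls and 8.02, 2.51, 4.66 and 6.05 CPM in the knockouts (log2 fold change 0.63, adjusted p = 0.238). Mkx, the homeobox factor mohawk, was counted 8, 6 and 21 times in the controls and 9, 4, 1 and 13 times in the knockouts, and did not pass the filter on low counts. Of the 8 that were tested 1 was higher in the knockout, Six2 (log2 difference 1.56, adjusted p = 0.0114), 0 were lower, and the list median was 0.12 (-0.14 without control 1). Markers of fascia and interstitial fibroblasts, called fibroblast markers below, numbered 18. Of these, 1 was more than 2-fold above both other controls in control 3 and 3 were highest there. They summed to 1148, 776 and 1126 CPM in control 1 to 3. Of 14 activated myofibroblast markers, 4 were more than 2-fold above both other controls in control 3 and 9 were highest there. These 4 were Mfap4 and Col12a1, the latter also a tenocyte marker, and Cthrc1 and Lrrc15, which did not pass the filter on low counts. Cthrc1 was counted 1, 3 and 59 times in control 1 to 3 and 2, 0, 0 and 2 times in knockout 1 to 4. The part of tendon or fascia RNA in the differences of Postn, Tnc, Thbs4, Comp and Tnmd was not tested beyond leaving out single libraries. For Cilp the log2 difference was -2.76 with control 3 and -2.64 without it.

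**Figure D3:**
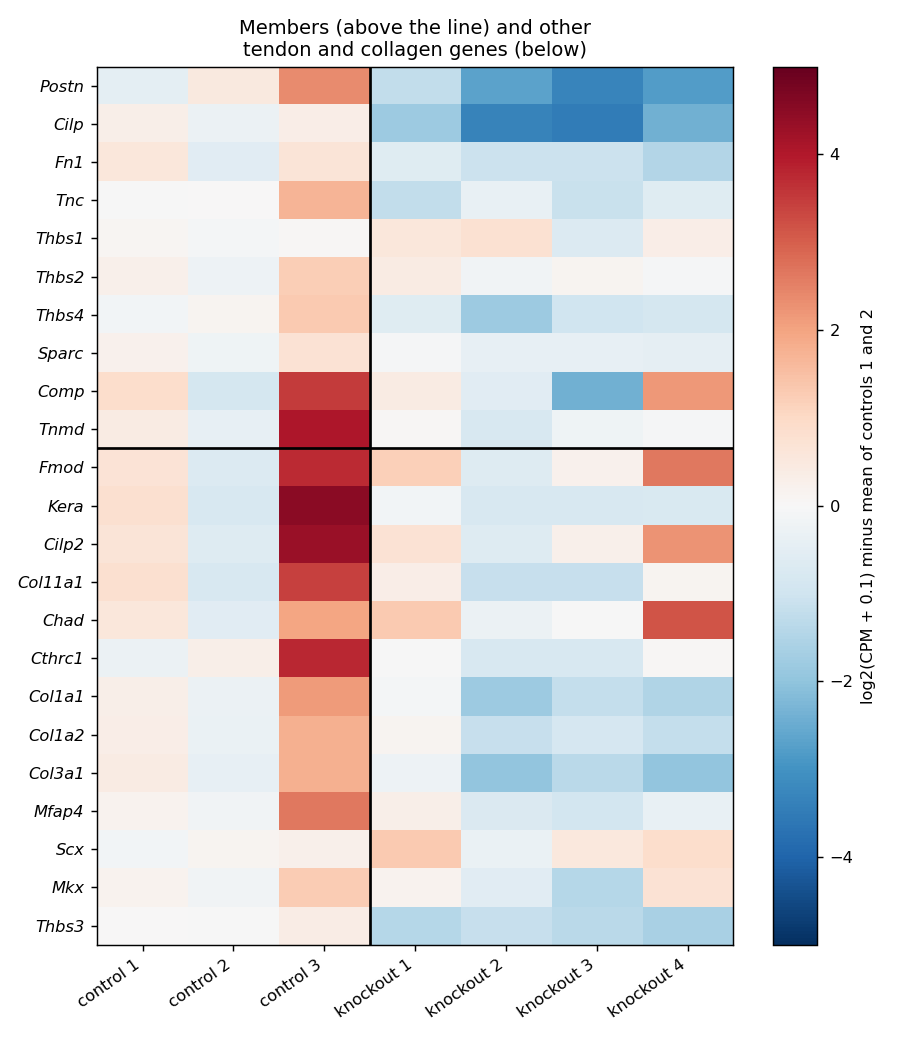
Heat map of log2(CPM + 0.1) in each library minus the mean of controls 1 and 2, for the members (above the line) and other tendon and collagen genes (below it). Tnmd, Comp, Kera, Cilp2 and Fmod are dark red in control 3, Comp, Fmod, Cilp2 and Chad are raised in knockout 4, and Cilp and Postn are blue in all 4 knockouts.

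Of 12 collagen genes of the interstitium 11 were highest in control 3 among the controls. Col1a1, a chain of type I collagen, read 27.9, 18.2 and 98.1 CPM in the controls and 20.8, 6.39, 9.80 and 7.82 CPM in the knockouts. Its knockout 1 value lay between controls 1 and 2, so unlike Postn its groups overlapped. Of 11 tested fibrillar and associated collagen genes 6 were called lower and 0 higher (median log2 fold change -1.26). They included Col5a2 (-1.26, adjusted p = 0.0220), Col14a1 (-1.72, adjusted p = 0.0372), Col3a1 (-2.07, adjusted p = 0.0381) and Col6a1 (-0.81, adjusted p = 0.0409). With 1 library left out, 0 were called without control 1, control 3, knockout 3 or knockout 4, 1 without knockout 2, and 7 without control 2 or knockout 1. The robust prior left 1 call. The median was -0.68 without control 3.

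**Figure D4:**
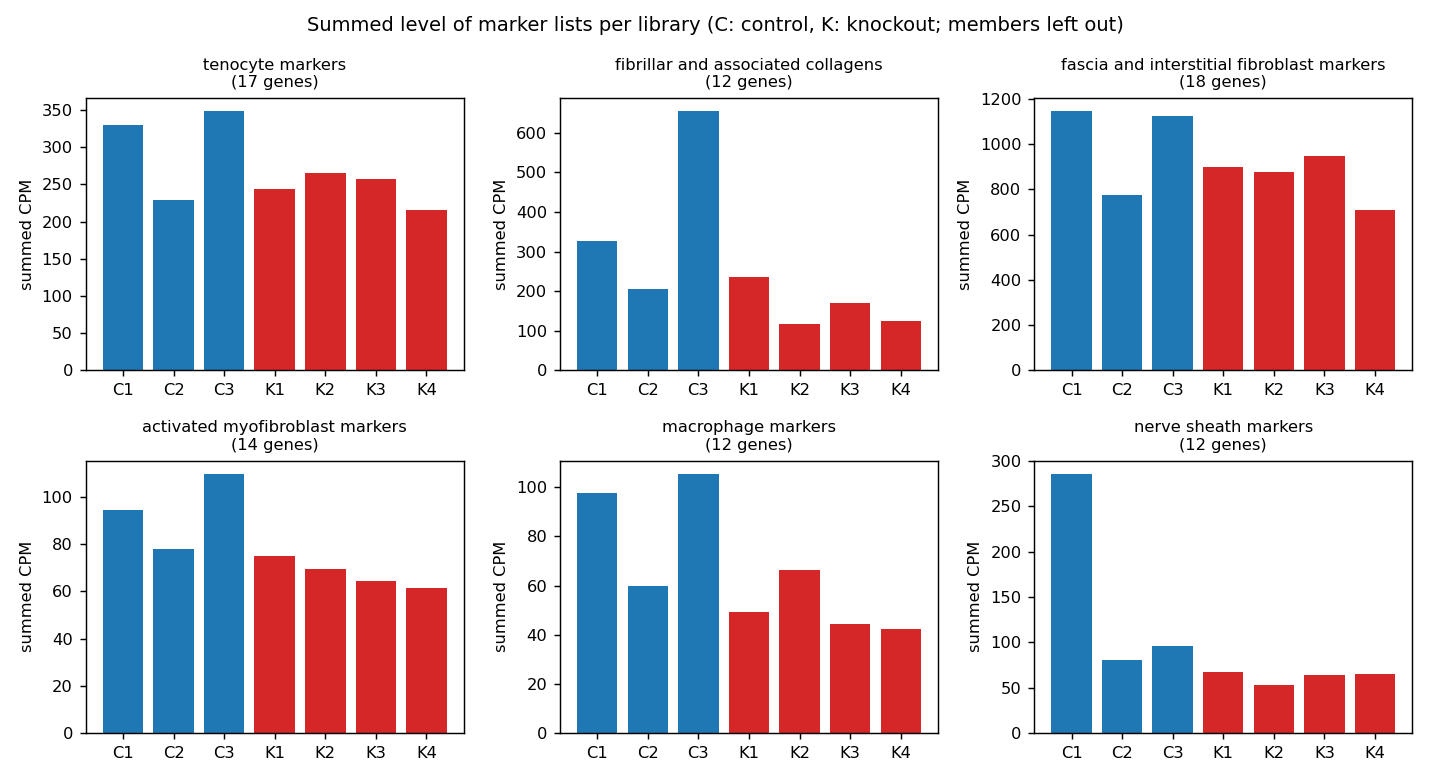
Summed CPM of 6 marker lists in each library (bars from 0, C for control and K for knockout, members of the described set left out). The collagen list is highest in control 3 at 656 CPM, the nerve sheath list in control 1 at 286 CPM, and the fibroblast list spans 711 to 1148 CPM with the groups overlapping.

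Among other matricellular and adhesive glycoproteins, more were called lower than higher in the knockout. Of the 25 tested (of 40 listed), 10 were lower, 2 were higher and 13 were not called, with a median of -0.58. Thbs3, the remaining pentameric thrombospondin, read 4.82, 4.60 and 6.07 CPM in the controls and 1.71, 2.09, 1.79 and 1.45 CPM in the knockouts. Every knockout lay below every control. Thbs3 had a log2 difference of -1.55 ± 0.175 (SE; adjusted p = 0.0030), and was called with each library left out. Its exons overlap those of Mtx1 on the other strand over 318 bases. Fbln2 (fibulin 2, a basement membrane linker) fell by 0.59 (adjusted p = 0.00643), Tgfbi (a relative of periostin with the same fasciclin domains) by 0.92 (adjusted p = 0.00657) and Tnxb (tenascin-X, of collagen-rich tissue) by 0.68 (adjusted p = 0.00667). These 3 were also called with each library left out. The 2 that rose were Smoc1, a relative of Sparc that modulates BMP signals, by 1.23 (adjusted p = 0.0136), and Aebp1, a collagen-binding protein, by 0.93 (adjusted p = 0.0150). Smoc1 lost its call without control 3 (adjusted p = 0.0526) and Aebp1 without control 1 (0.0593). With 1 library left out 5 to 10 of the list were lower and 1 to 2 higher.

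Of 25 tested receptor genes for these proteins, 4 were lower and 0 higher (median -0.24). Cd36, a receptor of thrombospondins that also carries fatty acids into fibres, averaged 332 ± 31.4 CPM in the controls (n = 3) and 178 ± 30.3 CPM (SD) in the knockouts (n = 4), and fell by 0.90 (log2; adjusted p = 0.00695). Sdc2, a heparan sulfate coreceptor, fell by 0.85 (adjusted p = 0.0127), and both were called with each library left out. Itgb3, the partner of the alpha V integrin that binds fibronectin, periostin and thrombospondin, fell by 1.21 (adjusted p = 0.0225) and Sdc3, a syndecan of satellite cells, by 0.44 (adjusted p = 0.0378). Itgb3 kept its call in 3 and Sdc3 in 2 of the 7 fits with a library left out. Cd47, the other thrombospondin receptor, had a log2 fold change of -0.24 and was not called.

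In the TGF-beta pathway, which induces Postn, Fn1 and Tnc in fibroblasts, 2 of 16 tested genes were lower and 1 was higher (median -0.07). Ltbp4, which anchors latent TGF-beta to the matrix, fell by 0.62 (log2; adjusted p = 0.0030) and was called with each library left out. Tgfb3, a ligand, fell by 0.36 (adjusted p = 0.0453) and the receptor gene Tgfbr1 rose by 0.40 (adjusted p = 0.0302), calls kept in 1 and 2 of those 7 fits.

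Markers of the cells that could supply these transcripts are given by their counts, beside the 7.94% lower and 6.56% higher over all tested genes. The lists overlap, and the called genes Thbs3, Lum, Col14a1, Acta2 and Col3a1 are each counted in 2 of them. Of 11 tested tenocyte markers 4 were lower and 0 higher, namely Thbs3, Lum, Col14a1 and Prg4, the last with reads shared with other genes. With 1 library left out 2 to 6 were lower, and with the robust prior 2. The median was -1.003, and -0.41 without control 3. Of 16 fibroblast markers 4 were lower and 1 higher (median -0.34), among them the proteoglycan Lum by 1.46 (adjusted p = 0.00648), the elastic fibre protein Mfap5 by 1.2 (adjusted p = 0.00739) and the progenitor marker Cd34 by 0.60 (adjusted p = 0.0140). Each of these 3 was called with each library left out. Cxcl14, a chemokine, rose by 1.25 (adjusted p = 0.0275, not called without control 2, control 3 or knockout 3). Pdgfra, the defining receptor of interstitial fibroblasts, had a log2 fold change of -0.28 and was not called. The 18 fibroblast markers summed to 776 to 1148 CPM in the controls and 711 to 947 CPM in the knockouts, with Has1 at 0 counts in knockout 3.

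Of 10 tested markers of activated myofibroblasts 4 were lower (median -0.62, 0 called without control 3), namely the metalloprotease gene Adam12, Acta2 (smooth muscle actin, -0.42, adjusted p = 0.0221), the collagen gene Col8a1 (-1.17, adjusted p = 0.0248) and Loxl2 (a collagen cross-linker with reads shared with other genes, -0.74, adjusted p = 0.0335). Adam12 had 18, 16 and 18 counts in the controls and 8, 2, 2 and 3 in the knockouts, and so passed the filter on low counts only through the controls. With a minimum mean of 10 counts it was not tested, and 3 of 9 markers were lower. Of 14 markers of the myotendinous junction 3 were lower and 1 higher (median -0.17, 0 of either without control 3 or without knockout 4). Xirp2 (adjusted p = 0.0246) and Nrap (adjusted p = 0.0322), actin-binding proteins of fibre ends, and the stretch-responsive Ankrd2 (adjusted p = 0.0297) had log2 differences of -0.45, -0.53 and -1.52, and Pla2g7, a lipase, one of 0.97 (adjusted p = 0.0272). Col22a1, the collagen of that junction, had a log2 fold change of -0.68 and was not called (adjusted p = 0.0854). Of 3 tested cartilage markers 0 were called (Col11a2 0.37, Col9a1 0.45), at a summed level of 9.90 to 14.5 CPM over 11 genes, and Acan (aggrecan) was at 0 counts in every knockout and at 10 in control 3. Smooth muscle and pericyte markers had 5 of 12 lower (median -0.37), endothelial markers 2 of 12 (-0.29) and macrophage markers 3 of 11 (-0.94). Nerve sheath markers had 3 of 12 lower (median -1.18, and -0.48 without control 1) and adipocyte markers 3 of 9 (-0.62). None of these lists had a gene called higher. With 1 library left out these 5 lists had as few as 1, 0, 1, 1 and 1 lower. The leading genes were Cspg4 of pericytes (log2 difference -0.71, adjusted p = 0.00776), Tie1 of endothelium (-0.47, adjusted p = 0.0160), Csf1r of macrophages (-0.94, adjusted p = 0.00489), Itgb4 of nerve sheath (-1.195, adjusted p = 0.0127) and Lpl of adipocytes, also made by muscle fibres (-2.08, adjusted p = 0.00657). Others called were Myh11, Acta2, Kcnj8 and Pdgfrb, Egfl7, Lyz2 and Cd68, Pmp22 and Tenm2, and Fabp4 and Retn. Of the 7 fits with a library left out, Cspg4, Csf1r, Itgb4 and Lpl kept their calls in all 7. Egfl7 kept it in 6, Myh11 in 5 and Tie1 and Acta2 in 4. Kcnj8, Lyz2, Cd68 and Pmp22 kept theirs in 3, and Pdgfrb, Tenm2, Fabp4 and Retn in 1. Tenm2 had 30, 19 and 23 counts in the controls and 4, 5, 14 and 10 in the knockouts. It passed the filter on low counts only with the help of the controls. The macrophage markers summed to 59.8 to 106 CPM in the controls and 42.3 to 66.4 CPM in the knockouts. The part of these cells in the differences of the members was not tested.

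Across the 7 libraries the members tended to vary together, except Thbs1, whose r with the others ran from -0.30 (Thbs4) to 0.39 (Comp). The median Pearson r over the 45 pairs of members, on log2 CPM, was 0.719, and 37 pairs were positive. After subtracting each group's mean the median was 0.558 and 44 pairs were positive. By this second measure the r of Thbs1 with the others ran from -0.16 (Thbs4) to 0.52 (Comp). Thbs2 and Sparc were the closest pair by the second measure (r = 0.971), and Tnmd with Thbs2 came next (0.947). The points share library composition and are few, so these coefficients are descriptions. Outside the set, the genes most like Tnmd over 7 libraries, of 11179 candidates, were Dpp6 (r = 0.970), Mfap4 (0.962), a microfibril protein, Abi3bp (0.962), a matrix protein, Vwa8 and Creld2. Those most like Fn1 were Epb41l1 (r = 0.986), Slc9a9, Col14a1 (0.985), a collagen that coats fibrils, Dnajc27 and Pltp. Those most like Postn were Vkorc1 (r = 0.997), the enzyme that recycles vitamin K, Acp2, Uck1, Ppib and Usp11. Vkorc1 itself had a log2 difference of -0.36 (adjusted p = 0.125), far smaller than that of Postn. Those most like Comp were Rpp38 (0.979), a subunit of ribonuclease P, Cpxm2, Gne, Herc1 and Cercam. After subtracting group means the first places went to Vkorc1 for Postn (r = 0.987), Prpf4 for Comp (0.992), Ppip5k1 for Tnmd (0.973) and Stard13 for Fn1 (0.987).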

How the data were processed

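Bulk RNA of gastrocnemius was sequenced as 7 libraries (paired ends of 150 bp, per the labels' protocols). The submitters' processing notes name STAR 2.7.10a, RSEM 1.2.28, DESeq2 1.3.40 and the mm10 build. The deposited table holds RSEM expected counts per gene symbol, not normalized, one column per library. The sources used here do not give annotation or strand, and 24 symbols had been turned into dates.

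Expected counts were rounded. In R 4.3.3, edgeR 4.0.16 was run with filterByExpr, TMM scaling and the quasi-likelihood F test on all 13409 retained genes, with Benjamini-Hochberg adjustment over them and calls at 0.05. SE is the size of the fold change (log2) divided by the root of F. CPM used TMM library sizes, and log2 CPM a prior count of 2. Positions and exon lengths are from GENCODE M21 (GRCm38). Intervals are 95% exact binomial (Clopper-Pearson) and, with the 3-count limit for a count of 0, cover counting error only. Counts of this design were simulated, with 13258 genes fitted. The test recovered 38.8% of the 1.5-fold changes, 78.8% of the 2-fold changes and 98.5% of the 4-fold changes. Unchanged genes made up 4.70% of calls. Each simulated gene had the spread of the trend at its level, not its own spread. These shares therefore need not hold for genes as variable between libraries as Postn, Comp and Tnmd.

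Alternatives were RLE and upper quartile scaling, omitting the filter or replacing it by a minimum mean of 10 counts, DESeq2 1.42.0, a robust prior, a replicate term and leaving out each library. The replicate term was fitted without knockout 4, which has no control of the same number. The members and the 15 other gene lists were chosen with earlier results of these data known. Genes to name were the members, Park7, up to 4 called genes per list by p (2 where none was called) and the 5 genes most correlated with Postn, Comp, Tnmd and Fn1. Kera, Cilp2, Fmod, Chad, Dcn, Col12a1, Col1a1, Col22a1, Cthrc1, Lrrc15, Cd47, Pdgfra, Pdgfrb, Mkx, Has1, Acan, Smoc1, Aebp1, Acta1 and Ckm were named after their values were seen.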

Additional observations from a re-analysis of the deposited data

Results flagged for a closer look

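Among 11 genes checked in the 4 knockout libraries (the members and Park7), 2 had 1 library far from the other 3, where chance flags about 1 in 20 groups. For Postn the gap from knockout 1 (3.56 CPM) to the next knockout (1.22 CPM) was 0.835 of the whole range. For Sparc the gap from knockout 1 (95.4 CPM) to the next (75.7 CPM) was 0.901 of the range. Knockout 1 was the highest knockout for 7 of the 10 members.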

How the results depend on the processing

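The count of called genes (1944) was 1918 to 2354 under the scaling alternatives and DESeq2, 1832 to 1912 under the filter and prior alternatives, and 775 to 2025 with 1 library left out (801 without control 1, 988 without control 2, 775 without control 3, 937 without knockout 3 and 1243 without knockout 4). The count of called members (5) was 4 to 6 under those settings and 2 to 6 with 1 library left out (3 without control 1, 2 without control 3 or knockout 3). Without control 3 and knockout 4 together, chosen after seeing the data, 232 genes and 1 member (Cilp) were called, and Cilp had a log2 fold change of -2.72 (adjusted p = 0.0450). The sign changed for Thbs2 (-0.755 to 0.0717 with 1 library left out, positive without control 3, and 0.12 without control 3 and knockout 4) and for Comp (-2.95 to 0.58, positive without control 3). Same-numbered libraries had deviations that correlated at 0.0945, 0.134 and 0.0854, so the numbers were not taken as pairs. Knockouts 1 to 3 nevertheless each correlated best with the control of their own number. Knockout 4, without such a control, correlated best with control 3 (0.0809). With the replicate block, which left out knockout 4, 1213 genes and 3 members were called, and Postn (adjusted p = 0.0808) and Tnc (0.102) were not. Without knockout 4 and without the block 1243 genes and 4 members were called. DESeq2 gave no adjusted p for Tnmd, which could not be fitted without knockout 1, when it did not pass the filter. The cause of these changes was not tested, and a smaller number of samples cannot be told apart from the particular library left out. Depth limits Tnmd, Comp and Tnc, with under 25 counts in most libraries.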
